A study of Mus musculus with 12 samples.

Results

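The transcription factors described here are 10 regulators of macrophage identity: Spi1 (PU.1), Cebpa, Cebpb, Egr2, Klf4, Bhlhe40, Bhlhe41, Rxra, Mitf and Tfec. They were chosen by name. A gene was taken as measured when the accession of a non-control probe named it, and its brightest probe stood for it. All 10 of 10 were found, among 23124 genes or transcripts tested and 13810 named genes. All 10 were well above background on all 12 arrays, so the filter on dim probes removed none of them. Each had 1 probe, except Bhlhe41, Rxra and Mitf, which had 2.

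RNA was taken from alveolar macrophages that had been recovered by airway lavage and purified by flow cytometry. The donors were female C57BL/6 mice, 8 to 9 weeks old, and no treatment is given. The 4 genotypes were wild type (WT), Bach1 KO (B1KO in the plots), Bach2 KO (B2KO) and mice lacking both genes (double KO, DD in the plots), with 3 independent mice each and 1 single-colour Agilent array per mouse. How the alleles were made and in which cells they act was not given in the sources used here. Bach1 and Bach2 are related transcriptional repressors that bind DNA as dimers with small Maf proteins. The study's title names the role of Bach2 in alveolar macrophages, and the genotypes ask what the loss of each repressor, alone or together, does to these cells.

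PU.1 is the ETS-family factor that opens myeloid enhancers, and it works there beside the C/EBP leucine zipper factors. In the lung, the cytokine GM-CSF together with PU.1 and PPARgamma, the partner of the retinoid X receptor, sets the alveolar macrophage programme. Egr2 and the pair Bhlhe40 and Bhlhe41 are known as further factors of this cell type, Klf4 as a factor of monocytes and of alternatively activated macrophages, and Mitf and Tfec as members of the MiT family that switches on lysosomal and osteoclast genes.

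All values below are log2 signals minus the 75th percentile of the same array (log2 relative signal). A value of 0 lies at that percentile. Values of different genes come from different probes and are not set against each other. Group values are mean ± SD over 3 mice, and differences are log2 differences ± SE. A difference passed at an adjusted p under 0.05 over all 23124 genes or transcripts (limma, Benjamini-Hochberg). Where all mice of a group are said to lie above or below all mice of another, this describes few mice and is not a test. The share of all genes that do the same was counted only for the 6 arrays against 6 with and without Bach2. In bulk RNA of sorted cells, a changed share of cells and a changed amount of RNA per cell cannot be told apart.

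The share of spots that the scanner software called above background ran from 45.2% to 72.4% over the arrays, with no saturated spot. WT replicate 3 and Bach1 KO replicate 3 stood apart from the other arrays on the third principal component, with scores of 123 and -76. Without both, the same genes among the 10 passed in every comparison. The Bach1 probe measured 3.93 ± 0.31 in WT and 2.50 ± 0.08 in Bach1 KO, a difference of -1.43 ± 0.32 with an adjusted p of 0.21. In the double KO it was lower than in WT by the same test (-1.44 ± 0.32, adjusted p = 0.00644). The brighter of the Bach2 probes was close to background, at -4.24 ± 3.37 in WT and -4.77 ± 0.91 in Bach2 KO, so the Bach2 genotype could not be checked on these arrays. The positions of both probes relative to the deleted parts are not given. The double KO arrays filled a slide of their own that was scanned on a later day. In every comparison with the double KO, genotype and slide therefore cannot be told apart.

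The sequence in front of each gene's start was examined for the Bach core motif because the genotypes remove Bach factors. RefSeq promoter windows (assembly GRCm38.p6, 250 bases before to 50 after the annotated start) matched 8 of the 10 genes, with 15 windows. Bhlhe40 and Spi1 were not matched. On both strands, TGANTCA, the core shared by AP-1 and Bach factors, was in 0 of the 15 windows and in 7.81% of all 32851 windows of that length. GCTGANTCA, which holds that core with the Maf-side extension, was in 0 of 15 and in 1.19% of all. The E-box CACGTG, to which Bhlhe and MiT factors are known to bind, was in 3 of 15 and in 7.15% of all. The E-box CATGTG was in 3 of 15, all of them overlapping windows of Egr2, and in 14.2% of all. The 250 bases upstream of the annotated start are shown for the genes whose signal was lower in Bach2 KO than in WT and that had a window (the first of 2 Rxra windows, chr2:27676951-27677200, plus strand; Cebpb, chr2:167688665-167688914, plus strand). They are also shown for Klf4 (chr4:55532476-55532725, minus strand) and Bhlhe41 (chr6:145865421-145865670, minus strand), 2 of the 3 genes with CACGTG. Capitals mark CACGTG, and each line runs 5′ to 3′ along the gene's strand up to the base before the start.
Rxra: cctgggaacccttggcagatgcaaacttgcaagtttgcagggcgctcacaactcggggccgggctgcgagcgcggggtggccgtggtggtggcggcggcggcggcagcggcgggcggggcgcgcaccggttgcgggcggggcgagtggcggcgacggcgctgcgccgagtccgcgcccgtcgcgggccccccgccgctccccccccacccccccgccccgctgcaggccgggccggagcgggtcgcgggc
Cebpb: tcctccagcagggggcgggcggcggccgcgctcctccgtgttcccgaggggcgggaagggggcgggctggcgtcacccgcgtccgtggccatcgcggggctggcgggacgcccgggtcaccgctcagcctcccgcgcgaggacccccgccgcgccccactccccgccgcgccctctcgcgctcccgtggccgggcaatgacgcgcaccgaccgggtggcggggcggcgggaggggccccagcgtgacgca
Klf4: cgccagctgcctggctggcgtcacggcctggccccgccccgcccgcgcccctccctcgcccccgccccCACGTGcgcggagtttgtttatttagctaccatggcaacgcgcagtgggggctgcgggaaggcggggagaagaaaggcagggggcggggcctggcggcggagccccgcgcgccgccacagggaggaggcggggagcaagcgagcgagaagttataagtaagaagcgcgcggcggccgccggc
Bhlhe41: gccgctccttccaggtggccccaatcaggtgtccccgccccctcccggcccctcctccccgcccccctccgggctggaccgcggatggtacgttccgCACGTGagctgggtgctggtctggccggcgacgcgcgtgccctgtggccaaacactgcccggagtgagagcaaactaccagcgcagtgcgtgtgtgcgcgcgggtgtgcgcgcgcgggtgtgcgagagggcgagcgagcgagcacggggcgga
Counted from the start, with the base before it as -1, CACGTG began at -182 in Klf4, at -153 in Bhlhe41 and at -27 in the first of 5 Egr2 windows. The Rxra and Cebpb windows hold none of the motifs searched. A match is a run of letters and not a bound site, and the lack of one concerns these windows only.

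Loss of Bach2 went with a change in 3 of the 10 factors. Bhlhe40 was higher in Bach2 KO than in WT, and Rxra and Cebpb were lower. Bhlhe40 and Rxra also passed in the same direction when the double KO was compared with WT and with Bach1 KO. Of the 10 genes, 1 was higher and 2 were lower in Bach2 KO against WT, where 37.1% of all genes or transcripts passed. In the double KO against WT it was 1 higher and 1 lower (27.2% of all passed), and in the double KO against Bach1 KO again 1 higher and 1 lower (26.1% of all). With only 10 genes, these counts are near the share over all genes, and in Bach2 KO against WT the count rises to 6 of 10 after quantile normalization or with no scaling. None of the 10 passed in Bach1 KO against WT (0.0605% of all passed in limma), and none in the double KO against Bach2 KO (3.56% of all). An unadjusted p under 0.05 was reached by 1 and 0 of the 10 in these comparisons. Over all 23124 genes or transcripts, 1228 and 4925 reached it. The median difference of the 10 was 0.18 in Bach2 KO against WT, beside -0.30 over all genes.

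**Figure D1:**
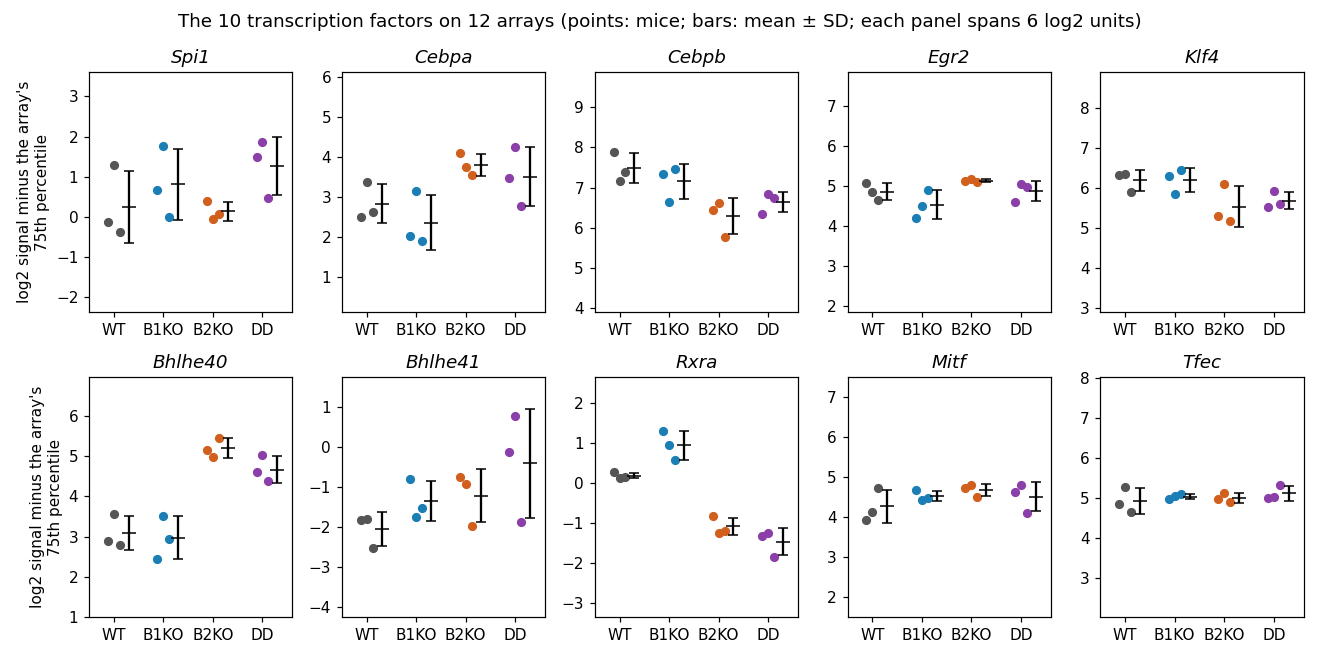
Log2 signal minus the array's 75th percentile (y axis) of the 10 factors by genotype (x axis). Points are mice, bars are mean ± SD (n = 3), and every panel spans the same range of log2 units. The Bhlhe40 points of both Bach2-deficient groups (4.38 to 5.47) lie above all WT and Bach1 KO points (2.44 to 3.56), and the Rxra points lie below them.

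Bhlhe40, a basic helix-loop-helix repressor of alveolar macrophages and T cells, gave the largest difference of the 10 in Bach2 KO against WT. It measured 2.90, 3.56 and 2.78 in the WT mice and 2.44, 3.52 and 2.95 in the Bach1 KO mice. The Bach2 KO mice gave 5.15, 4.98 and 5.47, and the double KO mice 4.6, 5.03 and 4.38. The 6 arrays with an intact Bach2 gene, by label, and the 6 without it did not overlap, which held for 22.9% of all genes or transcripts and, of the 10 factors, for Bhlhe40 and Rxra. The difference was 2.12 ± 0.31 in Bach2 KO against WT (4.34-fold, adjusted p = 0.000431), and 1.98 ± 0.37 (adjusted p = 0.00774) within slide 1, which holds the WT and Bach1 KO mice and Bach2 KO replicates 1 and 2. It was 1.70 ± 0.31 in the double KO against Bach1 KO (3.25-fold, adjusted p = 0.00205) and 1.59 ± 0.31 against WT (adjusted p = 0.00305). Ordered by mean, Bach2 KO (5.20 ± 0.25) came before the double KO (4.67 ± 0.33), WT (3.08 ± 0.42) and Bach1 KO (2.97 ± 0.54). The neighbours Bach2 KO and double KO did not differ by the test (-0.53 ± 0.31, adjusted p = 0.361, 95% interval of the difference -1.22 to 0.16), and neither did WT and Bach1 KO (-0.11 ± 0.31, interval -0.80 to 0.58).

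Bhlhe41, the close relative of Bhlhe40 with overlapping functions, gave -1.82, -1.80 and -2.53 in WT and -0.80, -1.76 and -1.52 in Bach1 KO. Bach2 KO gave -0.76, -0.93 and -1.98, and the double KO -0.12, 0.78 and -1.89. The groups overlapped, except that all Bach1 KO mice were above all WT mice. No comparison passed: the double KO was 1.64 ± 0.60 above WT with an adjusted p of 0.0644. The double KO replicate 3, the lowest of its group, lay within the WT range and lowered that difference. Without that mouse the difference from WT was 2.38 with an adjusted p of 0.00619, and against Bach1 KO it was 1.69 with 0.034. The difference from WT passed in 4 of 27 processing alternatives and fell to 0.91 at the least (adjusted p up to 0.366). The one from Bach1 KO passed in 1 of 27 and fell to 0.36 (adjusted p up to 0.7). The second Bhlhe41 probe was above background on only 1, 1, 2 and 3 arrays of WT, Bach1 KO, Bach2 KO and the double KO, and it gives no further information.

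Rxra encodes retinoid X receptor alpha, the dimer partner of PPARgamma, LXR and the retinoic acid receptors. It measured 0.26, 0.13 and 0.15 in WT, and 1.3, 0.94 and 0.57 in Bach1 KO. The values were -0.83, -1.24 and -1.20 in Bach2 KO, and -1.32, -1.24 and -1.85 in the double KO. All 6 arrays of the Bach2-deficient mice were below all 6 others, and the Bach1 KO mice were above the WT mice. Rxra was lower in Bach2 KO than in WT by 2.42-fold (-1.27 ± 0.29, adjusted p = 0.00553); within slide 1 the difference was -1.22 ± 0.32 (adjusted p = 0.0318). It was lower in the double KO than in Bach1 KO by 5.30-fold (-2.41 ± 0.29, adjusted p = 7.8e-05) and lower than in WT by 3.14-fold (-1.65 ± 0.29, adjusted p = 0.00125). Ordered by mean on the brighter probe, Bach1 KO (0.94 ± 0.36) came first, then WT (0.18 ± 0.07), Bach2 KO (-1.09 ± 0.22) and the double KO (-1.47 ± 0.33). The step between Bach1 KO and WT did not pass (0.76 ± 0.29, unadjusted p = 0.022, adjusted p = 0.755), nor did that between the double KO and Bach2 KO (-0.38 ± 0.29, adjusted p = 0.487, interval -1.0 to 0.25).

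The larger drop of Rxra with Bach1 also absent was not called. The interaction, which asks whether the Bach2 difference changes when Bach1 is lost, was -1.13 ± 0.40 with an unadjusted p of 0.0165 and an adjusted p of 0.247. None of the 10 passed this test, and 0.675% of all genes or transcripts did. In limma, 1 of the 10 had an unadjusted p under 0.05, as did 3414 of all 23124. The other Rxra probe gave 0.55, 0.14 and 0.48 in WT, 1.25, 0.78 and -0.46 in Bach1 KO, -1.14, -1.33 and -1.60 in Bach2 KO, and -1.29, -1.24 and -1.15 in the double KO. In a fit of 30848 probes it too was lower in Bach2 KO than in WT (-1.75 ± 0.39, adjusted p = 0.00581), in the double KO than in WT (-1.62 ± 0.39, adjusted p = 0.0106) and in the double KO than in Bach1 KO (-1.75 ± 0.39, adjusted p = 0.00733). Its interaction was 0.01 ± 0.55. The step between Bach1 KO and WT was 0.13 ± 0.39 on this probe (limma, unadjusted p = 0.75), and the 2 groups overlapped. Its means were -1.36 in Bach2 KO and -1.23 in the double KO, so the order of these groups was the other way round.

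**Figure D2:**
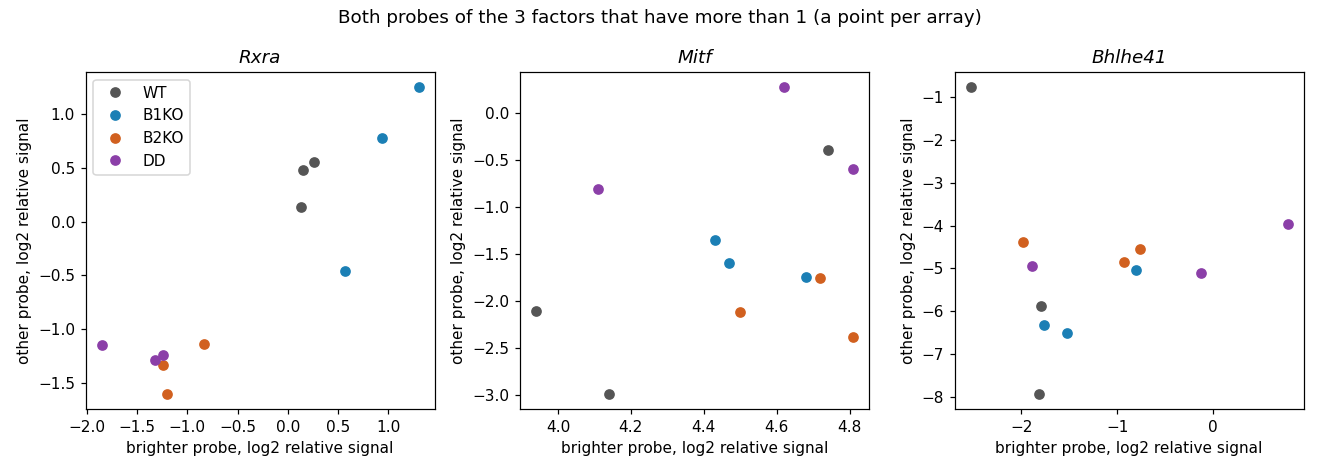
Log2 relative signal of the brighter (x axis) and the other probe (y axis) of Rxra, Mitf and Bhlhe41, a point per array, coloured by genotype. Both Rxra probes place the 6 Bach2-deficient arrays below 0 at the lower left, while the probes of Mitf and Bhlhe41 do not order the arrays alike.

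Cebpb encodes a leucine zipper factor of inflammatory and alternative activation. It measured 7.89, 7.17 and 7.39 in WT and 7.33, 6.65 and 7.46 in Bach1 KO. It was 6.45, 6.62 and 5.77 in Bach2 KO, and 6.35, 6.83 and 6.73 in the double KO. All mice of both Bach2-deficient groups were below all WT mice, while the double KO overlapped Bach1 KO. The difference of Bach2 KO from WT was -1.20 ± 0.30 (2.30-fold lower, adjusted p = 0.00863). With slide 1 alone, which leaves out Bach2 KO replicate 3, it was -0.95 ± 0.30 with an adjusted p of 0.0575, and after quantile normalization it was -0.26 ± 0.17 with 0.249. The double KO did not pass against WT (-0.85 ± 0.30, adjusted p = 0.0526) or against Bach1 KO (-0.51 ± 0.30, adjusted p = 0.224). The former passed without WT replicate 2 (-1.0, 0.0384), without Bach1 KO replicate 2 (adjusted p = 0.0361) and without Bach2 KO replicate 3 (adjusted p = 0.035). In all it passed in 6 of 27 processing alternatives and ran from -1.12 to -0.29 over them (adjusted p up to 0.233).

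Cebpa encodes the C/EBP factor that granulocyte and macrophage progenitors need. Its values were 2.49, 3.38 and 2.61 in WT and 2.02, 3.15 and 1.89 in Bach1 KO. They were 4.09, 3.75 and 3.54 in Bach2 KO, and 3.48, 4.24 and 2.77 in the double KO. All Bach2 KO mice lay above all WT mice, and the double KO overlapped both WT and Bach1 KO. The difference of 0.97 ± 0.42 in Bach2 KO against WT had an unadjusted p of 0.0422 and an adjusted p of 0.0942. The double KO differed from Bach1 KO by 1.14 ± 0.42 (adjusted p = 0.0687). Without WT replicate 2 the first difference was 1.25 (adjusted p = 0.0476). Without Bach1 KO replicate 2 the other was 1.54 (adjusted p = 0.0214), and without double KO replicate 3 it was 1.51 (adjusted p = 0.0302). Most alternatives did not pass. The first difference passed in 5 of 28 and fell to 0.74 at the least (adjusted p up to 0.235). The other passed in 4 of 27 and fell to 0.77 (adjusted p up to 0.238).

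Spi1 encodes PU.1, the factor that the whole myeloid lineage needs. It gave -0.14, 1.28 and -0.39 in WT, 0.66, 1.77 and 0.00 in Bach1 KO, 0.39, -0.06 and 0.07 in Bach2 KO, and 1.48, 1.87 and 0.47 in the double KO. The WT, Bach1 KO and double KO mice each spread widely and overlapped, while the double KO mice were all above the Bach2 KO mice. Bach2 KO differed from WT by -0.12 ± 0.54 (adjusted p = 0.883), with an interval of -1.30 to 1.06. The double KO was 1.14 ± 0.54 above Bach2 KO (adjusted p = 0.251) and 1.02 ± 0.54 above WT (adjusted p = 0.177). Without WT replicate 2, the highest WT mouse, the latter was 1.54 with an adjusted p of 0.0437. It passed in only 2 of 27 processing alternatives and ran from 0.70 to 1.54 over them (adjusted p up to 0.429).

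Egr2 encodes a zinc finger factor that acts with the Nab corepressors. It measured 5.07, 4.84 and 4.66 in WT, 4.19, 4.5 and 4.90 in Bach1 KO, 5.13, 5.16 and 5.09 in Bach2 KO, and 4.6, 5.05 and 4.97 in the double KO. The Bach2 KO mice were close together and above all WT mice, but the difference was 0.27 ± 0.22 (adjusted p = 0.36). Klf4, a Kruppel-like zinc finger factor, measured 6.32, 6.35 and 5.89 in WT, 6.30, 5.85 and 6.45 in Bach1 KO, 5.30, 6.11 and 5.17 in Bach2 KO, and 5.53, 5.92 and 5.60 in the double KO. Bach2 KO replicate 2 lay within the WT range and the other Bach2 KO mice below it. The Klf4 difference of Bach2 KO from WT was -0.66 ± 0.27 (unadjusted p = 0.0334, adjusted p = 0.0785), and without Bach2 KO replicate 2 it was -0.95 with an adjusted p of 0.0152. It passed in 3 of 28 processing alternatives and ran from -0.95 to 0.16 over them (adjusted p up to 0.932).

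Mitf encodes the founding member of the MiT family. Its brighter probe gave 3.94, 4.14 and 4.74 in WT, 4.68, 4.43 and 4.47 in Bach1 KO, 4.72, 4.81 and 4.5 in Bach2 KO, and 4.62, 4.81 and 4.11 in the double KO. All groups overlapped the WT range, and the difference in Bach2 KO was 0.40 ± 0.25 (adjusted p = 0.228). The other Mitf probe gave -2.10, -2.98 and -0.40 in WT, -1.74, -1.35 and -1.59 in Bach1 KO, -1.75, -2.38 and -2.12 in Bach2 KO, and 0.27, -0.60 and -0.81 in the double KO. On that probe the double KO was 1.44 ± 0.56 above WT (adjusted p = 0.0781) and 1.70 ± 0.56 above Bach2 KO (adjusted p = 0.124), neither of which passed, and the brighter probe gave 0.24 ± 0.25 and -0.17 ± 0.25. Which transcripts each probe reads was not examined. Tfec, the MiT member found mainly in macrophages, measured 4.86, 5.28 and 4.65 in WT, 4.97, 5.05 and 5.11 in Bach1 KO, 4.99, 5.14 and 4.91 in Bach2 KO, and 5.0, 5.03 and 5.34 in the double KO. Its 12 values spanned 0.69 log2 units, the narrowest span of the 10, and Bach2 KO differed from WT by 0.09 ± 0.20 (interval -0.35 to 0.53).

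**Figure D3:**
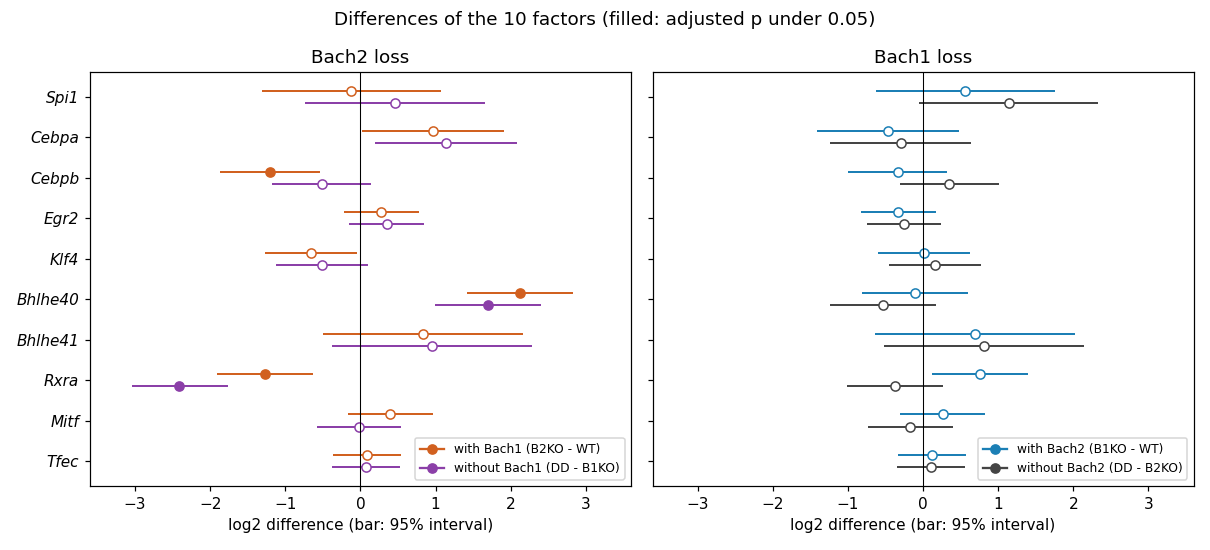
Log2 differences (x axis) of the 10 factors (y axis) with their 95% intervals, for the loss of Bach2 (left) and of Bach1 (right), each with the other gene present or absent. Filled points passed at an adjusted p under 0.05: Bhlhe40, Rxra and Cebpb for Bach2 loss with Bach1 present, Bhlhe40 and Rxra for Bach2 loss without Bach1, and none for Bach1 loss.

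The comparisons Bach2 KO against WT and double KO against Bach1 KO share no mice, and both remove Bach2. The 10 factors had the same sign in both for 8 of 10 genes (80%), as did 76.8% of all genes or transcripts. For Bach1 loss, measured in Bach1 KO against WT and in double KO against Bach2 KO, 7 of 10 (70%) had the same sign, beside 46.3% of all. No Bach1 difference of the 10 passed in either comparison. The differences from WT in Bach1 KO ran from -0.47 ± 0.42 (Cebpa) to 0.76 ± 0.29 (Rxra) on the brightest probes. The other Rxra probe gave 0.13 ± 0.39.

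The scaling between arrays bears on these directions, because the median difference over all genes in Bach2 KO against WT was -0.30 as scaled here, -0.15 after quantile normalization, -0.53 with scaling to the array median and 0.39 with no scaling. Of all genes that passed, 33.5% were higher as scaled here (2872 higher and 5711 lower), 44.7% after quantile normalization (3520 and 4354) and 68.8% with no scaling (4778 and 2165). For the 10 factors the split was 1 higher and 2 lower as scaled here, 1 and 3 with array median scaling, and 5 and 1 both after quantile normalization and with no scaling. Bhlhe40 was higher in all of them, by 1.89 to 2.81. Rxra was lower in all, but with no scaling its difference was -0.58 ± 0.42 (adjusted p = 0.312) in Bach2 KO and -1.21 ± 0.42 (adjusted p = 0.0542) in the double KO against WT. In the double KO against Bach1 KO, Rxra passed under every scaling.

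After quantile normalization, Cebpa (1.36, adjusted p = 0.0372), Egr2 (0.95, 0.00625), Mitf (0.98, 0.00881) and Tfec (0.75, 0.0235) passed as higher in Bach2 KO than in WT. With no scaling the same genes passed, at 1.66, 0.96, 1.10 and 0.78. With array median scaling Tfec turned to -0.14 and Klf4 passed as lower (-0.89, adjusted p = 0.0392). The directions of Tfec and of Klf4, which was 0.16 with no scaling, therefore turn with the scaling, and so does that of Spi1. The Bach2 KO range of Cebpb was -1.43 to -0.26 over all alternatives.

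**Figure D4:**
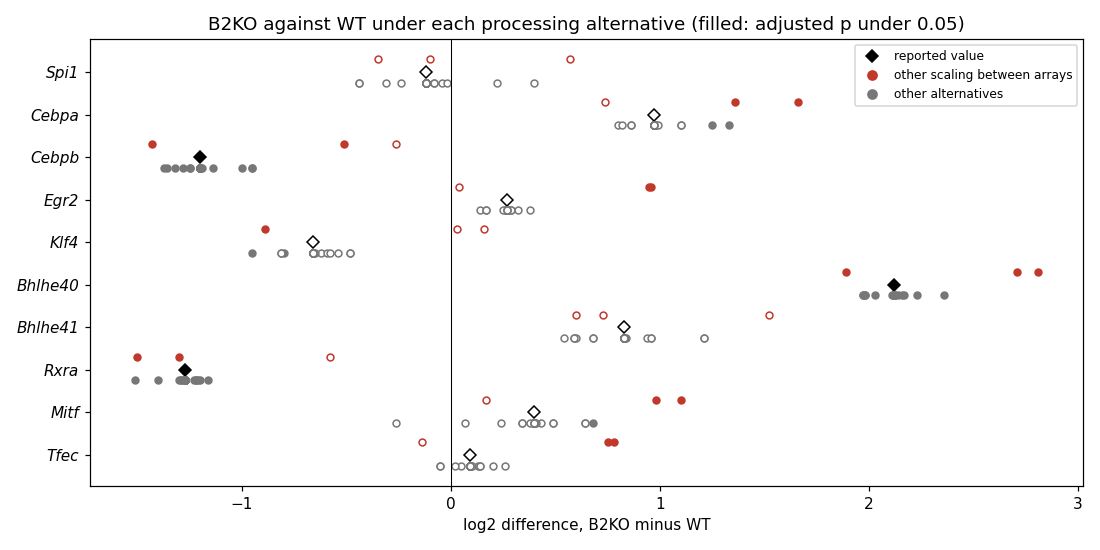
Log2 difference of Bach2 KO from WT (x axis) for each factor (y axis) as reported (diamond) and under every alternative; red points change the scaling between arrays, grey points change something else, and filled points have an adjusted p under 0.05. Bhlhe40 stays filled throughout (1.89 to 2.81), while Tfec, Klf4, Spi1 and Mitf have points on both sides of 0.

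The families and partners of the 10 factors were taken as a list of 28 genes, of which 27 were tested. Over all genes or transcripts, 37.1% passed in Bach2 KO against WT. Of the 27, 4 were higher, 12 were lower and 11 did not pass, with a median difference of -0.71 beside -0.30 over all genes. After quantile normalization 5 were higher and 9 lower with a median of -0.26, and with no scaling 6 and 7 with a median of -0.02. The higher genes include Spib, the ETS factor closest to PU.1, which was below background on all WT arrays and at least 32.4-fold higher (adjusted p = 6.51e-06). Spib was above background on no WT or Bach1 KO array. It entered the test only through the Bach2-deficient groups, so it could hardly come out other than higher. The higher genes also include Egr1, the immediate early relative of Egr2 (2.57 ± 0.37, adjusted p = 0.000365), and Ddit3, the stress-induced C/EBP partner CHOP (1.66 ± 0.34, adjusted p = 0.00358). Among the lower genes were Id1, an inhibitor of basic helix-loop-helix factors (-6.46 ± 0.42, adjusted p = 1.02e-06), Rara, the retinoic acid receptor that pairs with RXR (-4.22 ± 0.40, adjusted p = 1.84e-05), and Cebpd, a relative of Cebpb (-2.60 ± 0.27, adjusted p = 3.01e-05). In the double KO against Bach1 KO, 4 of the 27 were higher and 7 lower, where 26.1% of all passed. The 6 genes named passed in the same direction: Spib at least 34.1-fold higher, Egr1 4.25, Ddit3 1.77, Id1 -6.96, Rara -2.23 and Cebpd -1.72.

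Other transcription factors of macrophages and their precursors, 33 tested of 38 listed, were higher in 12 cases and lower in 7 in Bach2 KO against WT. Their median was -0.16, and 37.1% of all genes or transcripts passed. After quantile normalization 14 were higher and 6 lower with a median of 0.34, and with no scaling 13 and 3 with a median of 0.53, so the sign of the median turns with the scaling. Gfi1, a zinc finger repressor, was below background on all WT arrays and at least 403-fold higher (adjusted p = 1.8e-07). Gfi1 was above background on no Bach1 KO array either. It entered the test only through the Bach2-deficient groups, so a higher value was all but given. Of the 33 genes, 3 could be given only such a bound in this comparison. The ETS factor Ets2 was 1.38 ± 0.22 higher (adjusted p = 0.000738). Lyl1 (-2.80 ± 0.31, adjusted p = 6.24e-05), Nr4a1, an orphan nuclear receptor (-2.63 ± 0.38, adjusted p = 0.000351), and Irf8, the interferon regulatory factor that partners PU.1 (-1.39 ± 0.20, adjusted p = 0.000403), were lower. Against Bach1 KO, the double KO had 10 higher and 1 lower (26.1% of all passed). Gfi1 (at least 573-fold) and Ets2 (1.16) passed again, and Lyl1 (-0.40), Nr4a1 (-0.01) and Irf8 (-0.59) did not.

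Known myeloid targets of PU.1 and C/EBP factors, 22 genes all tested, were mostly lower as scaled here. In Bach2 KO against WT, 2 were higher, 13 lower and 7 did not pass, with a median of -0.76 (37.1% of all passed). After quantile normalization this became 3 higher and 5 lower with a median of 0.02, and with no scaling 3 higher and 3 lower with a median of -0.07. With array median scaling it was 2 higher and 14 lower. The downward direction of the list therefore depends on the scaling. Fcgr1, the high-affinity IgG receptor (-2.09 ± 0.36, adjusted p = 0.00128), was lower under every scaling. Csf2rb, the shared chain of the GM-CSF receptor, was -0.97 ± 0.19 (adjusted p = 0.00274) as scaled here, and -0.17 (adjusted p = 0.426) after quantile normalization. Itgam, the integrin chain CD11b (3.70 ± 0.41, adjusted p = 6.04e-05), and Msr1, a scavenger receptor (1.45 ± 0.29, adjusted p = 0.00314), were higher. The double KO against Bach1 KO had 1 higher (Itgam, 4.03) and 6 lower, Fcgr1 (-1.34) among them, where 26.1% of all passed.

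Known targets of the MiT family, 15 genes of lysosomes and osteoclasts all tested, split into 4 higher and 4 lower in Bach2 KO against WT. Their median was 0.04, and 37.1% of all genes or transcripts passed. After quantile normalization they were 7 higher and 1 lower, and with no scaling all 6 that passed were higher. The vacuolar ATPase subunit Atp6v1h (2.50 ± 0.39, adjusted p = 0.000568), the chloride transporter Clcn7 (2.0 ± 0.37, adjusted p = 0.00195) and the autophagy receptor Sqstm1 (1.65 ± 0.40, adjusted p = 0.0076) were higher under every scaling. The sialidase Neu1 (-1.02 ± 0.23, adjusted p = 0.00579) was lower as scaled here. The phosphatase Acp5 (-0.96 ± 0.25, adjusted p = 0.0112) and the protease Ctsd (-0.76 ± 0.24, adjusted p = 0.0268) were lower as scaled here and did not pass after quantile normalization, at -0.02 and 0.10. In the double KO against Bach1 KO, 5 were higher and 0 lower, where 26.1% of all passed. In limma, 5 of the 15 had an unadjusted p under 0.05, as did 8850 of all 23124 genes or transcripts. Atp6v1h was at 2.43, Clcn7 at 1.40 and Sqstm1 at 1.20.

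In Bach1 KO against WT none of these 4 lists had a gene that passed in limma as scaled here. An unadjusted p under 0.05 was reached by 6 of 27, 5 of 33, 0 of 22 and 0 of 15 genes, in the order given. Over all genes or transcripts, 1228 of 23124 reached it. Spic, an ETS relative of PU.1 known from red pulp macrophages, came nearest to passing and was named after its values were seen. It averaged -3.21 in WT, where 2 of 3 arrays were above background, 2.33 in Bach1 KO, -2.48 in Bach2 KO and 2.25 in the double KO. The difference of Bach1 KO from WT was 5.54 ± 0.95 (adjusted p = 0.0761), and it passed with no scaling (5.69 ± 0.90, adjusted p = 0.0423). The double KO was higher than Bach2 KO by 4.72 ± 0.95 (adjusted p = 0.0218), and this passed under every scaling. In the double KO against Bach2 KO, 2 of 27, 2 of 33, 0 of 22 and 0 of 15 genes of the lists passed, beside 3.56% of all genes or transcripts. Besides Spic these were Rara (1.88 ± 0.40, adjusted p = 0.0283), Nr4a1 (2.05 ± 0.38, adjusted p = 0.0139) and Lyl1 (1.63 ± 0.31, adjusted p = 0.0176), all higher in the double KO. Of these, Rara and Nr4a1 did not pass with no scaling (adjusted p = 0.0684 and 0.0643). The medians of the lists did not move when the genes below background in a group were set at their bounds. At most 3 genes of a list had a bound and each kept its sign, so this could hardly move a median.

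**Figure D5:**
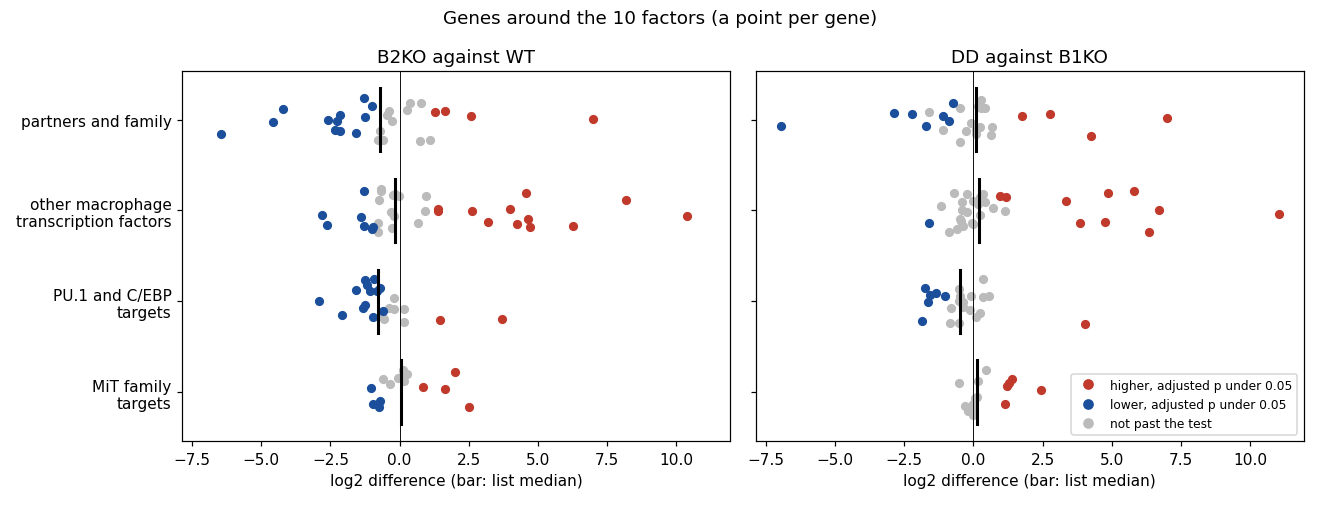
Log2 differences (x axis) of the genes of the 4 lists (y axis), a point per gene with the list median as a bar, in Bach2 KO against WT and in the double KO against Bach1 KO. Red points are higher and blue points lower at an adjusted p under 0.05; 4 of 27 partner and family genes are red and 12 blue on the left.

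Markers of cell types moved with the genotype as well. All 11 tested alveolar macrophage markers of 12 were above background on all arrays of every genotype, and their summed relative signal was 1130 to 1390 in WT, 866 to 1340 in Bach1 KO, 390 to 542 in Bach2 KO and 371 to 584 in the double KO. Marco, a scavenger receptor, measured 7.91 in WT and 2.62 in Bach2 KO, and Siglecf, a sialic acid lectin, 5.74 and -0.59, while Fabp4, a lipid carrier, measured 6.93 and 6.35. The 8 tested markers of monocytes and interstitial macrophages (of 9) summed to 0.888 to 1.35 in WT, 0.597 to 1.03 in Bach1 KO, 18.7 to 75.1 in Bach2 KO and 29.5 to 44.7 in the double KO. C1qa had no value on Bach2 KO replicate 1, so the sum of that array leaves it out. It measured 4.62 and 5.38 on Bach2 KO replicates 2 and 3. Of the 8 markers, 5, 3, 8 and 7 were above background on all arrays of the group. The 6 tested dendritic cell markers (of 8) summed to 0.285 to 1.64, 0.342 to 2.05, 31.8 to 43.7 and 16.8 to 44.7. Above background throughout were 3, 3, 6 and 6 of them. The sums of both Bach2-deficient groups were carried by Ccr7, at -2.29 in WT, 4.92 in Bach2 KO and 4.46 in the double KO. In Bach2 KO against WT, 4 of the 6 passed as higher and 0 as lower, where 37.1% of all genes or transcripts passed. Cd209a and Dpp4 were above background on no WT array and on all arrays of both Bach2-deficient groups. They entered the test only through those groups, so these counts were partly set by the filter. The part of these cell types in the differences of Bhlhe40, Rxra, Cebpb and Itgam was not tested.

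The other marker lists were smaller or less regular. The 7 tested T cell markers (of 8) summed to 78.4 to 147 in WT, 79.5 to 101 in Bach1 KO, 14.1 to 15.7 in Bach2 KO and 7.58 to 10.8 in the double KO. This sum was carried by Cd2 (6.70 in WT and 3.45 in Bach2 KO). The list itself went the other way: in Bach2 KO against WT, 3 of the 7 passed as higher and 1 as lower, with a median of 0.86. Of all genes or transcripts, 37.1% passed. Cd3d was not well above background on any WT or Bach1 KO array and was above it on all arrays of both Bach2-deficient groups, at -3.71 and -2.22. Cd3g was above background on 1 WT array and no Bach1 KO array. Cd3d and Cd3g entered the test only through the Bach2-deficient groups. The 2 tested B cell markers (of 6) summed to 0.0343 to 0.039 in WT, 0.0239 to 0.369 in Bach1 KO, 0.267 to 0.439 in Bach2 KO and 0.288 to 0.383 in the double KO. Of these, Cd79b was above background on 0 of 3 WT arrays and on all arrays of both Bach2-deficient groups (-1.70 and -1.72), and it measured -6.99 in WT. Cd79b too entered the test only through the Bach2-deficient groups. The 5 tested neutrophil markers (of 7) summed to 2.08 to 6.73, 4.67 to 11.4, 0.49 to 3.37 and 7.09 to 13.9 in WT, Bach1 KO, Bach2 KO and the double KO, and the 5 epithelial markers (of 8) to 13.1 to 16.0, 9.5 to 11.8, 20.6 to 23.3 and 19.5 to 23.9. The epithelial sum follows Cdh1 (2.13 in WT, 4.40 in Bach2 KO), while Epcam went the other way (2.78 and -1.95). In Bach2 KO, 1 of the 5 passed as higher and 2 as lower, with a median of -0.96, where 37.1% of all passed. The 1 tested erythroid marker (of 4) was at most 0.507, and no eosinophil marker was tested.

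For each factor, the named genes whose pattern over the 12 arrays was most alike were found among 10539 genes above background on all arrays. Likeness was the root mean square difference after each gene was centred on its own mean. The nearest to Bhlhe40 were Sh3pxd2b (0.25 log2 units) and Slc7a2 (0.28), beside a spread of 1.07 of Bhlhe40 itself (SD over 12 arrays). The nearest to Rxra were Ppp1r3d (0.25) and Arr3 (0.31), beside a spread of 1.04. Cebpa was nearest to Ubap2l (0.23) and Smap2 (0.26), and Cebpb to Rpl35a (0.10) and Sem1 (0.11). Spi1 was nearest to Sertad2 (0.32) and Slc9a3r1 (0.35), beside a spread of 0.79. Bhlhe41 was nearest to Erc2 (0.50) and Ankrd52 (0.51), beside a spread of 0.93. Egr2 was nearest to Cd22 (0.19) and Pgm3 (0.21), Klf4 to Pcna and Rbm39 (0.17 each), Mitf to Nrp2 and Rbmx (0.19 each), and Tfec to Tnrc6a (0.13) and Ndufs1 (0.14). A gene with a small spread of its own, such as Tfec (0.18), has near neighbours by this measure whatever its pattern.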

How the data were processed

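Sorted alveolar macrophages of 12 mice, 3 per genotype, were measured on 12 single-colour arrays. Per the file headers, the deposited intensity values are processed signals of Agilent Feature Extraction 10.7.3.1, background-subtracted within the array and not normalized between arrays; version 9.1 is named in the submitters' processing notes. The deposited series matrix holds log2 values of 20850 probes, centred per probe; how the authors made them was not given in the sources used here. Its columns correlated with the scanner values at 0.99901 to 0.99954, and their medians ran from -0.25 to 0.25. It served only as an alternative.

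From the log2 of each signal, the array's 75th percentile over 59305 non-control spots was subtracted. Outlier spots (136 to 733 an array) were left out and spots of a probe averaged. A probe entered (30878 of 55681) if the scanner software called it well above background in every mouse of 1 or more genotypes, and 26413 probes were named by 1 gene through their accessions. The brightest probe stood for a gene, with at least 2 values per genotype. Where a group was below background throughout, the fold is a bound against the lowest signal called above background on each array. Each gene was fitted with genotype means over all 12 arrays (R 4.3.3, limma 3.58.1, lmFit and eBayes with a trend, 8 residual degrees of freedom). Confidence intervals are 95%. P-values were adjusted over all genes of a comparison. The number of arrays limits the precision.

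The members and the gene lists were chosen with earlier results of these data known. Named from each list were up to 3 genes per direction with the smallest adjusted p in Bach2 KO against WT, and up to 2 per direction in Bach1 KO against WT. For each factor the 2 most alike genes were named; other names were chosen after their values were seen. Values of a few genes on the lists are not reported here. The fit was tested on simulated data. Alternatives were other scalings, background correction by normexp (offset 50), the series matrix, other filters and probe rules, other moderation, array weights, fewer groups, slide, a replicate block and leaving out each array.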

Additional observations from a re-analysis of the deposited data

Results flagged for a closer look

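Of the genes named, Lyl1, a helix-loop-helix factor of blood progenitors, differed in its response to Bach2 loss with and without Bach1. It was 2.80 ± 0.31 lower in Bach2 KO than in WT on the log2 scale, at a mean of 1.18 against 3.99, and it was 2.81 in the double KO and 3.21 in Bach1 KO. The interaction was 2.40 ± 0.45 (limma, adjusted p = 0.0337). It was 2.28 with an adjusted p of 0.0161 after quantile normalization, 2.56 with 0.0601 when arrays were scaled to their medians, and 2.0 with 0.075 with no scaling. The double KO arrays share a slide of their own, so genotype and slide cannot be told apart here.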

How the results depend on the processing

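The 10 factors in 6 comparisons gave 60 differences, of which 7 passed. Over 1654 values under the alternatives, 1613 kept their direction and side of the threshold or changed sign without passing in either case (79 such), 4 no longer passed, 37 newly passed and 0 reversed. Bhlhe40 passed under every alternative in Bach2 KO against WT (1.89 to 2.81), double KO against WT (1.41 to 2.03) and double KO against Bach1 KO (1.43 to 1.98), as did Rxra in the last (-2.59 to -2.08). In Bach2 KO against WT, the number of factors past the test was 3 as reported, 6 after quantile normalization, 6 with no scaling and 6 with array quality weights. With array quality weights it was 7 instead of 2 in the double KO against WT, and 1 instead of 0 in the double KO against Bach2 KO (Spi1, 1.28, adjusted p = 0.0281). The weights raised the calls over all 23124 genes or transcripts as well. In Bach2 KO against WT they gave 4421 higher and 7847 lower, instead of 2872 and 5711. For the double KO against WT it was 3997 and 6717 instead of 2444 and 3840, and against Bach2 KO 2018 and 1968 instead of 335 and 489. Leaving out 1 array at a time gave 3 to 4 factors in Bach2 KO against WT, 2 to 4 in the double KO against WT (4 without WT replicate 2) and 2 to 4 in the double KO against Bach1 KO (4 without double KO replicate 3). The series matrix holds 4 of the 10 factors, Mitf by its dimmer probe, which passed there in the double KO against WT (1.44, adjusted p = 0.0463). Slide 1 alone, with 8 arrays, gave no double KO value. Normexp on mean signals, as planned, was not run; it was run on median signals instead, a choice made after seeing the data, as was the fit without both WT 3 and Bach1 KO 3.

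With a replicate block, 4, 3 and 3 factors passed in Bach2 KO against WT, the double KO against WT and the double KO against Bach1 KO, instead of 3, 2 and 2. The added genes were Cebpa (adjusted p = 0.0312), Bhlhe41 (0.0293) and Cebpa (0.0209). Deviations of the 18 same-numbered pairs from different genotypes correlated at -0.143 to 0.385, with a median of 0.0348. The 36 pairs of different numbers and genotypes gave -0.267 to 0.2, with a median of -0.0464. Of the 12 arrays, 6 correlated best with an array of their own number. Whether an equal number marks mice that were handled together was not tested.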
